A study of Drosophila melanogaster with 18 samples.

Results

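The S9.6 signal that remained after RNase H was compared between S2 cells with a knockdown of hrp36 or hrp48 and LacZ control cells. S2 is an established Drosophila melanogaster line. The libraries were chosen by their label RNH+, read here as treated with RNase H, and they number 6 of the 18 in the study: 2 of hrp36-knockdown cells, 2 of hrp48-knockdown cells and 2 of cells labelled LacZ. Each of the 3 cell groups also gave 2 S9.6 libraries labelled RNH-, used here for reference, and 2 input libraries, not used here. The labels give no time, dose or knockdown reagent, and LacZ, a bacterial gene, is taken as the control target. The extent of the knockdowns was not analysed here.

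R-loops are three-stranded structures in which an RNA pairs with one DNA strand and displaces the other. The S9.6 antibody binds such RNA-DNA hybrids, and RNase H degrades their RNA strand, so that a treated sample serves as the control for hybrid-dependent signal in DRIP-seq. What is recovered after treatment can hold hybrid left undigested as well as DNA that came down for other reasons. The proteins hrp36 and hrp48 are hnRNPs, encoded by Hrb87F and Hrb27C, which bind nascent transcripts and take part in their splicing and packaging.

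The authors deposited 3 tables of dm3 regions, 1 per cell group, with 2980 regions in the hrp36 table, 7735 in the hrp48 table and 6477 in the LacZ table. The 17192 listed regions merged into 11113 loci, of which 1946 were in 3 tables, 1732 in 2 and 7435 in 1. Every table gives the mean level of each cell group with RNH- and with RNH+, as log2(normalised count + 1). The RNH+ level is thus known for all 3 cell groups at every region, and a difference between groups is a difference of these means, in log2 units. Total reads per library are unknown, and an SD over the 2 libraries of a group is not in the tables. The error used is therefore the authors' standard error of the RNH+ over RNH- change in the same region, scaled to unshrunken values, with a median of 0.39 in the hrp36 table, 0.41 in the hrp48 table and 0.37 in the LacZ table. A region was called when a Wald test with this error gave a Benjamini-Hochberg adjusted p under 0.05 over its table. The error comes from another contrast of 2 against 2 libraries, so calls are approximate. Whether the libraries of a group were separate cultures is not given in the labels, and the spread between them may be technical.

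After RNase H the knockdowns lay within 0.5 log2 units of LacZ at 77.2% to 94.4% of the regions, depending on the table. The levels are normalised counts, so these differences are relative ones. A change of the RNH+ signal shared by all regions could have been scaled out and was not tested. The hrp36 minus LacZ difference had a median of -0.06 in the hrp36 table (quartiles -0.20 and 0.11), -0.05 in the hrp48 table (quartiles -0.23 and 0.13) and 0.02 in the LacZ table (quartiles -0.18 and 0.19). The hrp48 minus LacZ difference had a median of -0.05 in the hrp36 table (quartiles -0.25 and 0.15), -0.16 in the hrp48 table (quartiles -0.41 and 0.11) and 0.09 in the LacZ table (quartiles -0.14 and 0.36). The direction of the hrp48 median thus differed between tables. At the median standard error, the difference of a single region has to pass 0.77 in the hrp36 table, 0.80 in the hrp48 table and 0.73 in the LacZ table to reach an unadjusted p of 0.05.

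The spread of the differences over regions changed with RNase H in a way that depended on the knockdown. For hrp36 minus LacZ the SD over regions was narrower with RNH+ in each table: 0.27 with RNH+ and 0.44 with RNH- in the hrp36 table, 0.30 and 0.53 in the hrp48 table, and 0.34 and 0.49 in the LacZ table. For hrp48 minus LacZ it was 0.41 with RNH+ and 1.24 with RNH- in the hrp48 table. In the tables of the other cell groups the order was turned, at 0.33 with RNH+ and 0.26 with RNH- in the hrp36 table, and 0.40 and 0.29 in the LacZ table. Regions are taken to be listed from the RNH- signal of one cell group, by the names they carry, which favours RNH- differences in that group's own table.

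**Figure D1:**
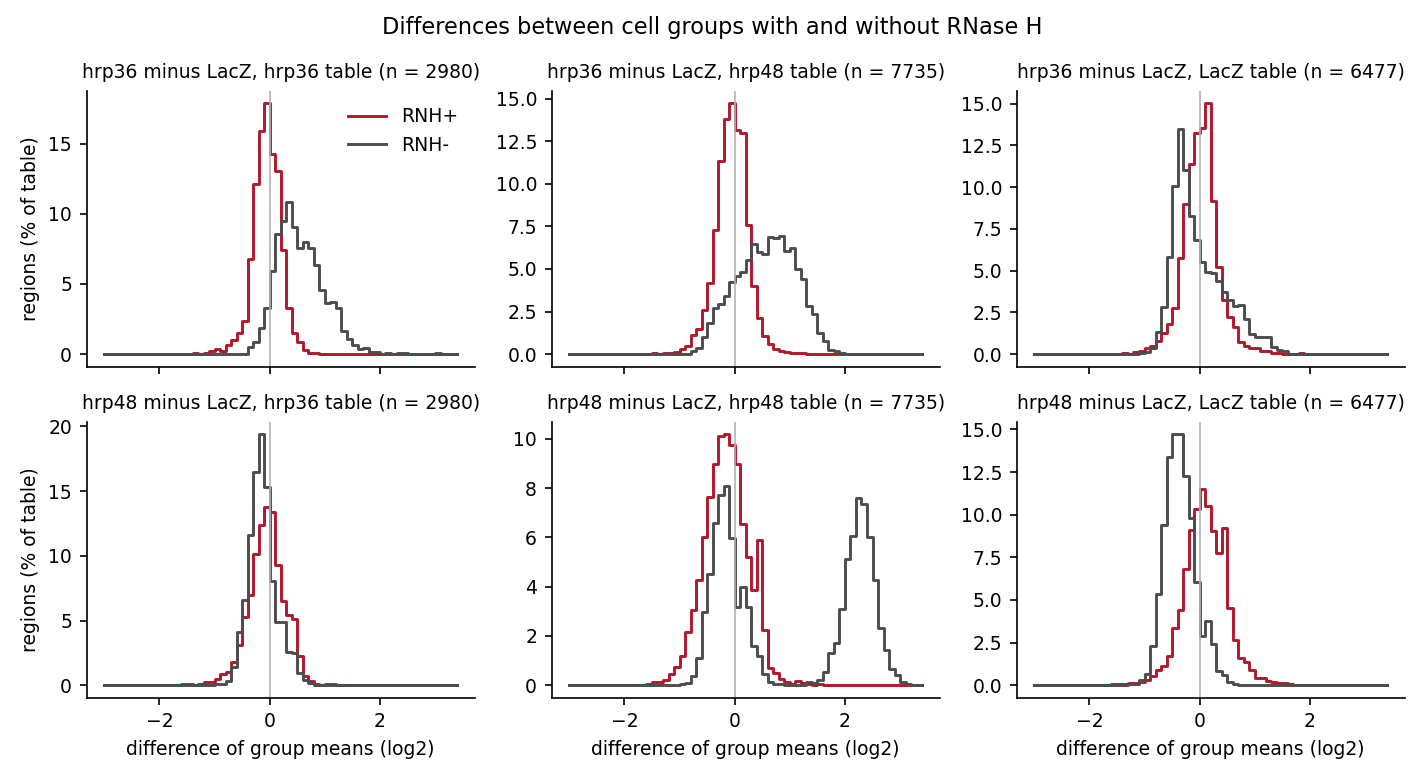
Histograms of the difference of group means (log2, x axis) over the regions of each table (percent of the table's regions, y axis), for hrp36 minus LacZ (upper row) and hrp48 minus LacZ (lower row), with RNH+ in red and RNH- in grey. The RNH+ histograms centre between -0.16 and 0.09, while RNH- medians lie from -0.38 to 0.60. The few differences beyond the axis range are counted in the end bins.

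Few regions passed the test in either knockdown. In hrp36 against LacZ, 1 of 2980 regions of the hrp36 table was called (0.0336%), higher in hrp36, and 0 were called lower (0%). In the hrp48 table, 1 of 7735 was called (0.0129%), also higher in hrp36. In the LacZ table, 8 of 6477 were called (0.124%), of which 6 were higher in hrp36 (0.0926%) and 2 lower (0.0309%). At an unadjusted p under 0.05 by the same Wald test, 34 regions differed in the hrp36 table (1.14% of it), 124 in the hrp48 table (1.60%) and 238 in the LacZ table (3.67%). Without U, Uextra and mitochondrial regions, 4 were called higher in hrp36 in the hrp48 table, and 6 higher and 1 lower in the LacZ table.

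In hrp48 against LacZ, 0 of 2980 regions of the hrp36 table were called by the Wald test (0%), and 62 differed at an unadjusted p under 0.05 (2.08%). In the hrp48 table, 4 of 7735 were called (0.0517%), 3 higher in hrp48 (0.0388%) and 1 lower (0.0129%), and 386 differed at an unadjusted p under 0.05 (4.99%). In the LacZ table, 2 of 6477 were called (0.0309%), 1 higher and 1 lower (0.0154% each), and 406 differed at an unadjusted p under 0.05 (6.27%). The directions at that threshold were uneven, with 95 higher and 291 lower in hrp48 in the hrp48 table, and 321 higher and 85 lower in the LacZ table. On the 1099 arm regions of the hrp48 table the split was the other way, with 55 higher and 5 lower. Over all regions of a table the differences from LacZ had an SD of 0.65 to 0.99 of their standard error. The borrowed error was thus as wide as their whole spread or wider. In the lowest quartile of base mean of the LacZ table the SD was 1.15 for hrp36 and 1.24 for hrp48. There the error was narrower than the spread, and that quartile held 6 higher calls and 1 lower call of hrp36 and 1 higher call of hrp48. One alternative, added after the data were seen, left out U, Uextra and mitochondrial regions. Of the 1420 regions then left in the hrp48 table, 15 were called higher in hrp48 and 1 lower. Of the 4099 left in the LacZ table, 3 were called higher and 0 lower.

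By size alone, a log2 difference past 1, a 2-fold difference, was rare. In hrp36 against LacZ it was reached upwards by 2 regions of the hrp36 table (0.0671%), 19 of the hrp48 table (0.246%) and 66 of the LacZ table (1.02%), and downwards by 14 (0.47%), 28 (0.362%) and 29 (0.448%) in the same order. In hrp48 against LacZ it was reached upwards by 6 regions of the hrp36 table (0.201%), 37 of the hrp48 table (0.478%) and 111 of the LacZ table (1.71%), and downwards by 22 (0.738%), 141 (1.82%) and 36 (0.556%). With RNH-, 464 of the 2980 regions of the hrp36 table lay past 1 upwards in hrp36. So did 1814 of the 7735 of the hrp48 table and 264 of the 6477 of the LacZ table. In hrp48, 3762 of the 7735 regions of the hrp48 table did so with RNH-, and 0 of the 2980 of the hrp36 table. In the LacZ table, in turn, 0 regions lay past 1 upwards and 37 downwards in hrp48 with RNH-, fewer upwards than with RNH+.

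The knockdowns were also set against each other. The hrp48 minus hrp36 difference with RNH+ had a median of 0.02 in the hrp36 table, -0.07 in the hrp48 table and 0.08 in the LacZ table. It was called at 1 region of the hrp36 table (0.0336%, lower in hrp48), at 1 of the hrp48 table (0.0129%, higher in hrp48) and at 0 of the LacZ table (0%), where the same Wald test gave 203 regions at an unadjusted p under 0.05 (3.13%). Differences past 1 upwards were seen at 4 regions of the hrp36 table (0.134%), 16 of the hrp48 table (0.207%) and 53 of the LacZ table (0.818%). Downwards they were seen at 10 (0.336%), 75 (0.97%) and 20 (0.309%). The comparisons share libraries: LacZ enters both knockdown contrasts, and each knockdown enters this one.

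The largest differences left after RNase H were at 3 regions, each of them high in 1 cell group alone and high there with RNH- too. The rule behind this count, a level above both other groups by more than 3 log2 units with RNH+ and with RNH-, was set after the values were seen. It found 1 region for each cell group, in the table of that group. They overlap no region listed in the other tables. Regions are taken to be listed by the RNH- signal of the table's own group, so their place there is not a result. The p-values given for them are of regions picked for their values. The first was on chromosome arm 3R, from 9484823 to 9485379 (dm3), 557 bases long and listed in the hrp36 table. Its RNH+ level was 10.19 in hrp36 cells and 4.90 in hrp48 cells, against 5.40 in LacZ cells. With RNH- it was 11.07 in hrp36 and 4.32 in hrp48 cells, against 4.97 in LacZ cells. The hrp36 level after RNase H was 27.7-fold that of LacZ, a difference of 4.79 (SE 0.48, Wald test with the DESeq2 standard error, adjusted p 7.29e-20). No other region of the hrp36 table had an RNH+ lead of hrp36 over both other groups above 0.97. In the authors' deposited table the change with RNase H in hrp36 cells there was -0.95 (adjusted p 0.126, SE 0.46), which was not called. The nearest region of the LacZ table lay 17896 bases away and had RNH+ levels of 5.31 in hrp36 and 5.22 in hrp48 cells, against 5.54 in LacZ cells.

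The second such region was on 2L, from 6923896 to 6924326, 431 bases long and listed in the hrp48 table. Its RNH+ level was 9.43 in hrp48 cells and 4.21 in hrp36 cells, against 5.49 in LacZ cells. With RNH- it was 9.22 in hrp48 and 4.53 in hrp36 cells, against 5.09 in LacZ cells. The hrp48 level after RNase H was 15.3-fold that of LacZ, a difference of 3.94 (SE 0.67, Wald test with the DESeq2 standard error, adjusted p 2.66e-05). The next largest RNH+ lead of hrp48 in that table was 1.17. For the change with RNase H in hrp48 cells, the authors' deposited table gives -0.01 (adjusted p 0.968, SE 0.62). At a distance of 2004 bases the LacZ table lists 6926330 to 6927625, which had RNH+ levels of 8.17 in hrp36 and 8.77 in hrp48 cells, against 8.42 in LacZ cells.

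The third was on Uextra, the dm3 collection of unplaced scaffolds, from 11425868 to 11426255, 388 bases long and listed in the LacZ table. Its RNH+ level was 4.59 in hrp36 and 4.94 in hrp48 cells, against 8.57 in LacZ cells. With RNH- it was 2.44 in hrp36 and 2.11 in hrp48 cells, against 9.14 in LacZ cells. The RNH+ difference was -3.98 for hrp36 (SE 0.63, Wald test with the DESeq2 standard error, adjusted p 2.07e-06) and -3.63 for hrp48 (adjusted p 6.29e-05). Here LacZ was 12.4-fold higher than the nearer knockdown, hrp48, and the next largest LacZ lead of that table was 1.36. The authors' deposited table gives -0.41 for the change with RNase H in LacZ cells (adjusted p 0.691, SE 0.58).

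The gene encoding hrp36, Hrb87F, lies on 3R and the gene encoding hrp48, Hrb27C, on 2L in the RefSeq annotation, which belongs to another build than the tables. These are the arms of the hrp36-high and the hrp48-high region. Whether either region lies within the gene was not tested, since no dm3 annotation was used here. Single libraries can be bounded from the tables, because a mean of logs falls below the log of the mean only when libraries differ. The group means at the 3R, 2L and Uextra regions came back to 0.62, 0.74 and 0.64 of the base mean, values reached or undercut by 0.03%, 0.04% and 0.02% of the regions of their tables. If the base mean covers the 12 S9.6 libraries, as the values allow, the 2 libraries of at least 1 of the 6 groups differed strongly at each of them. The lower hrp36 RNH+ library on 3R was at 7.75 or above, the lower hrp48 library on 2L at 7.79 or above, and the lower LacZ library on Uextra at 6.34 or above. In the low groups one library could lie as high as 9.79 (hrp48) or 10.80 (LacZ) on 3R, so the tables do not show that the libraries of the groups were apart there.

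**Figure D2:**
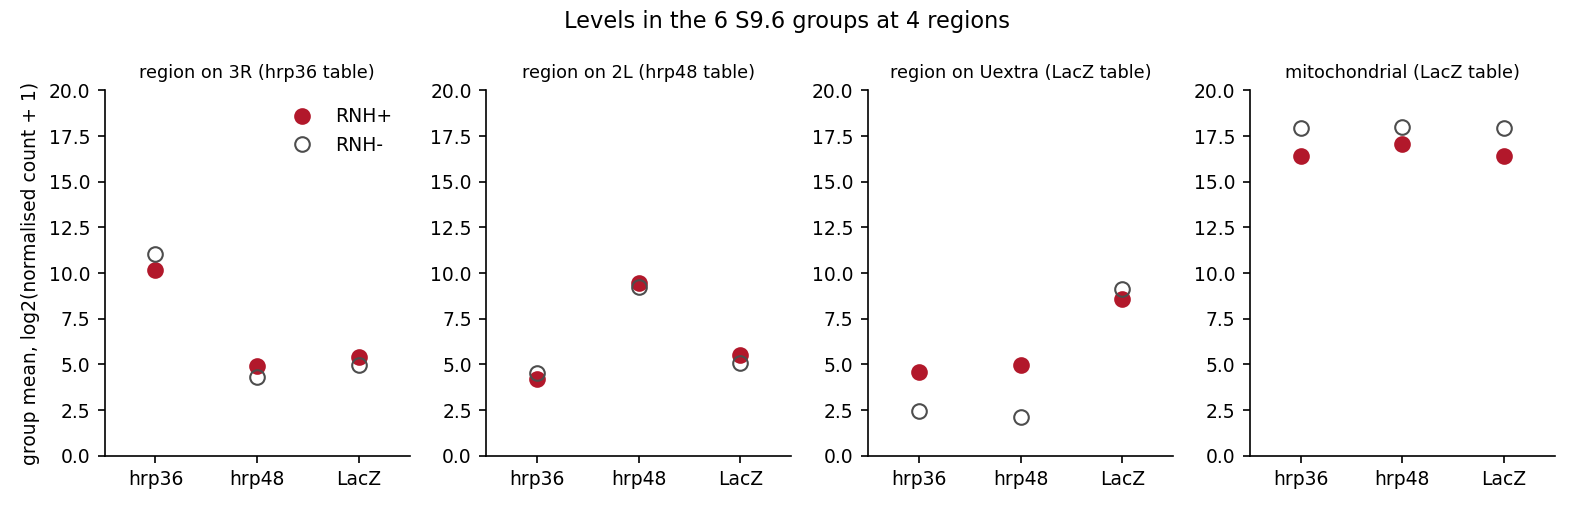
Group means (log2(normalised count + 1), y axis) in hrp36, hrp48 and LacZ cells with RNH+ (filled) and RNH- (open) at the regions on 3R, 2L and Uextra and at the long mitochondrial region; each point is the mean of 2 libraries, and no error is in the tables. On 3R, 2L and Uextra 1 cell group stands above both others with and without RNase H, and at the mitochondrial region the 3 groups share the RNH- level and hrp48 has the highest RNH+ level.

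The remaining calls were at weaker regions, and they are given here after their values were seen, since most lie below the median base mean of their table. The base mean is the normalised count over libraries. On 3L 7408780 to 7408973 (LacZ table, base mean 48.5), the RNH+ level was 4.98 in hrp36 and 5.23 in hrp48 cells, against 2.71 in LacZ cells. The difference was 2.27 for hrp36 (adjusted p 0.00854) and 2.53 for hrp48 (adjusted p 0.0013, Wald test with the DESeq2 standard error), the one region called higher in both knockdowns. On 2L 8808743 to 8808970 the RNH+ level was 6.57 in hrp36 cells, against 4.69 in LacZ cells, a difference of 1.88 (adjusted p 0.00854, same test). The hrp48 table lists that locus as 8808753 to 8808960 and gives 1.90 (adjusted p 0.0102), which is the only hrp36 call of that table. Both listings rest on the same libraries.

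The other regions called higher in hrp36 in the LacZ table were 2L 8678985 to 8679284, 2L 13590596 to 13590909, 2R 2029581 to 2030023 and 3L 15773603 to 15773854. Their differences were 1.84, 1.83, 1.89 and 1.75, with adjusted p from 0.0187 to 0.0479. All 6 of these regions were on the arms and in the lowest quartile of base mean, and 5 were in the shortest quartile of length. Their LacZ RNH+ levels lay from 2.71 to 4.69 and below the LacZ RNH- levels of 6.38 to 6.78. One region was lower in hrp36, 2L 3921221 to 3921562, with 4.28 in hrp36 cells, against 6.29 in LacZ cells, a difference of -2.01 (SE 0.39, adjusted p 0.00107). The bound from the base mean holds if that mean covers the 12 S9.6 libraries and the group means are means of logs. By it, both hrp36 RNH+ libraries lie on one side of both LacZ libraries at the 2L loci beginning at 3921221, 8678985 and 8808743. At 3921221 the margin is narrow, with hrp36 at most 5.58 and LacZ at least 5.63. At the other calls in these data the bound does not settle it.

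In the hrp48 table the remaining hrp48 calls were on 3R, U and Uextra. The region 3R 18975133 to 18975435 had an RNH+ level of 7.55 in hrp48 cells and 6.61 in hrp36 cells, against 5.69 in LacZ cells, and differed from LacZ by 1.86 in hrp48 (SE 0.40, adjusted p 0.00673). The region U 2952222 to 2952599 had 5.95 in hrp48 cells and 4.81 in hrp36 cells, against 3.94 in LacZ cells, a difference of 2.01 for hrp48 (adjusted p 0.0048). At Uextra 22895622 to 22896044, with a base mean of 29.4, the level was 2.51 in hrp48 cells and 4.38 in hrp36 cells, against 5.15 in LacZ cells, a difference of -2.65 for hrp48 (adjusted p 0.00187). None of the calls outside the 3 regions high in 1 cell group held with a pseudocount of 10 in place of 1. With RNH- the Uextra region at 22895622 had the opposite order, 6.01 in hrp48 cells, against 3.43 in LacZ cells.

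By part of the genome, the lowest hrp48 medians of a large class were on unplaced scaffolds in the hrp48 table. There the hrp48 minus LacZ difference was -0.20 on Uextra (5707 regions, 3929 below 0) and -0.20 on U (606 regions, 437 below 0), while the hrp36 medians were -0.05 and -0.09. In the hrp36 table the Uextra medians were -0.04 for hrp36 and -0.05 for hrp48. On the chromosome arms the median hrp36 minus LacZ difference was -0.09 in the hrp36 table (470 regions), -0.05 in the hrp48 table (1099 regions) and 0.02 in the LacZ table (3441 regions). The hrp48 medians on the arms were -0.07, 0.02 and 0.09 in the same order of tables. On the Het scaffolds, which hold mapped heterochromatin, the hrp36 medians were -0.12, -0.08 and -0.01, and the hrp48 medians -0.05, -0.04 and 0.09. On Uextra in the LacZ table the medians were 0.02 for hrp36 and 0.09 for hrp48, the values found on the arms of that table. With pericentromeric parts included, the 5 large arms were alike, with LacZ-table medians from 0.00 on 2R to 0.05 on 2L for hrp36, and from 0.08 on X to 0.12 on 3L and 3R for hrp48.

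**Figure D3:**
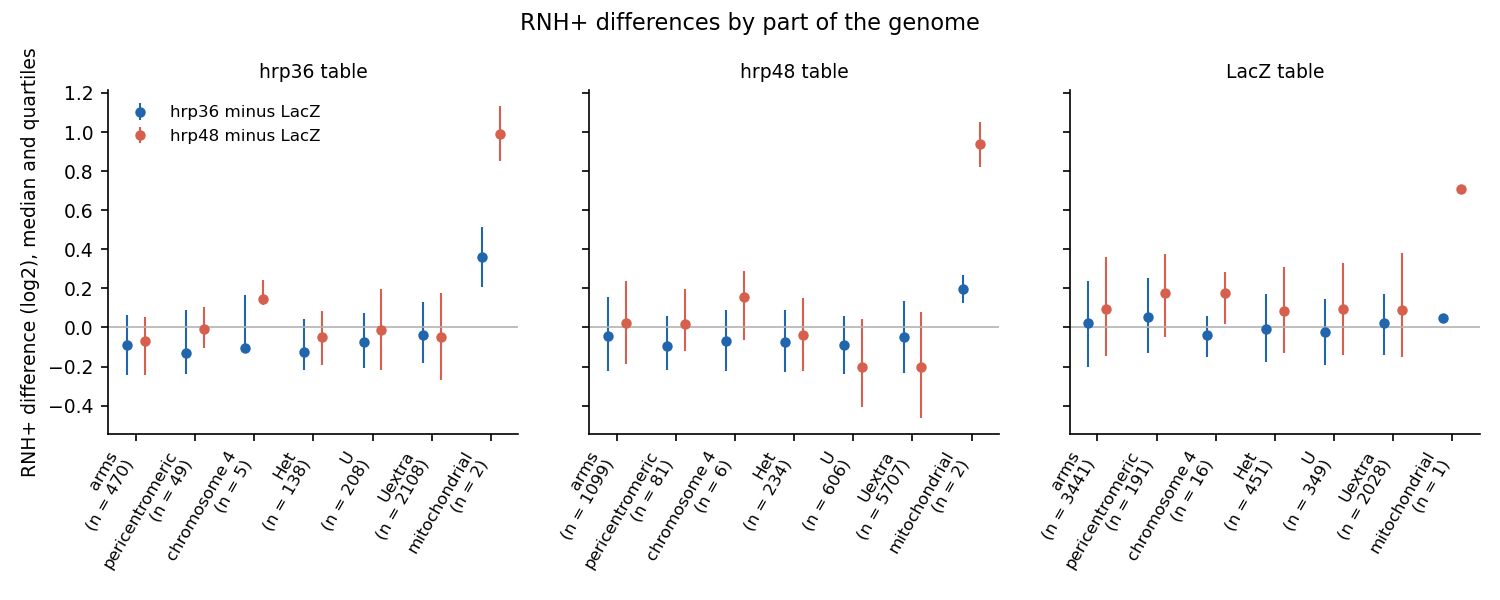
Median (point) and quartiles (bar) of the RNH+ difference in log2 units (y axis) by part of the genome (x axis, with the number of regions), for hrp36 minus LacZ in blue and hrp48 minus LacZ in red, in each table. Medians of the classes with over 100 regions lie between -0.20 and 0.18, and the mitochondrial regions lie higher for hrp48 at 0.71 to 0.99; bars are the spread over regions, not an error of replicates.

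The order of unplaced scaffolds and arms by the signal left after RNase H depended on which regions were listed. Per kilobase of region, the median normalised RNH+ count in the LacZ table was 624 in hrp36 and 628 in hrp48 cells, against 640 in LacZ cells, on Uextra. On the arms it was 288 in hrp36 and 312 in hrp48 cells, against 286 in LacZ cells. In the hrp48 table Uextra was lower, at 126 in hrp36 and 110 in hrp48 cells, against 136 in LacZ cells, while the arms had 433 and 451, against 424. In the hrp36 table Uextra had 424 and 410, against 432, and the arms 452 and 453, against 459. The highest LacZ RNH+ levels of the LacZ table were at 2RHet 5 to 355, with 18.60 in hrp36 and 18.81 in hrp48 cells, against 18.36 in LacZ cells, and at Uextra 9215410 to 9215774, with 17.50 and 17.75, against 17.26. Next came Uextra 28929685 to 28929970, with 16.84 in hrp36 and 17.04 in hrp48 cells, against 16.57 in LacZ cells. At all 3, RNH+ exceeded RNH- in every cell group: on 2RHet the RNH- levels were 16.00 in hrp36 and 16.63 in hrp48 cells, against 15.74 in LacZ cells. None of them was called in the LacZ table (the smallest adjusted p was 0.993 by the Wald test).

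Mitochondrial DNA carried the class with the highest hrp48 values. The region M 50 to 15005 of the LacZ table had an RNH+ level of 16.44 in hrp36 and 17.10 in hrp48 cells, against 16.39 in LacZ cells. Without the enzyme the 3 groups were within 0.05 of each other, at 17.94 in hrp36 and 17.99 in hrp48 cells, against 17.95 in LacZ cells. The RNH+ difference was 0.71 for hrp48 and 0.05 for hrp36 (SE 0.38), and the hrp48 value was not called (unadjusted p 0.0605, adjusted p 0.835, Wald test). The same stretch is listed as M 27 to 15007 in the hrp36 table and as M 52 to 15003 in the hrp48 table, with the same levels. In the hrp36 table the separate region M 15718 to 17445 had an RNH+ level of 11.40 in hrp36 cells, against 10.73 in LacZ cells, with hrp48 at 1.27 above LacZ (SE 0.47) and also not called. The hrp48 table lists M 16036 to 17183, where RNH+ levels were 10.51 in hrp36 and 11.33 in hrp48 cells, against 10.17 in LacZ cells. Among unplaced scaffolds, the 15050 bases of U 5288444 to 5303493 had a similar set of levels, with 16.08 in hrp36 and 16.72 in hrp48 cells, against 16.00 in LacZ cells with RNH+, and 17.50, 17.57 and 17.55 with RNH-. Whether U holds a copy of the same sequence was not tested.

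By length and base mean, the LacZ table had its largest hrp48 shifts at weak and short regions. Across quartiles of base mean in that table, lowest to highest, the median hrp48 minus LacZ difference was 0.17, 0.13, 0.08 and 0.03, and the median hrp36 difference was 0.07, 0.05, 0.01 and -0.05. The SD over regions was 0.52 in the lowest and 0.32 in the highest quartile for hrp48, and 0.48 and 0.23 for hrp36. By length, shortest to longest quartile, the hrp48 medians were 0.17, 0.15, 0.07 and 0.03. Length and base mean go together in these tables, with a median base mean of 87.0 in the shortest and 428.6 in the longest quartile of the LacZ table. At arm regions of the LacZ table with a base mean over 1000 both knockdowns had a median below 0, at -0.20 for hrp36 (176 of 198 below 0) and -0.14 for hrp48 (138 below 0). In the hrp48 table the direction at weak regions was the opposite, with hrp48 medians of -0.33, -0.29, -0.06 and 0.02 from the lowest to the highest quartile of base mean. In the lowest quartile of both tables, the table's own cell group was thus the lower one by the medians. The lowest quartile of the hrp36 table had medians of -0.03 for hrp36 and -0.05 for hrp48. Whether the listing of regions by 1 cell group plays a part was not tested.

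Those weak regions of the hrp48 table were mostly unplaced regions with a high RNH- level in hrp48 cells. At 3748 regions of U and Uextra hrp48 cells exceeded LacZ cells by over 1 log2 unit with RNH-. This border was set after the values were seen and uses RNH- libraries alone. After RNase H these regions had a median level of 5.97 in hrp36 and 5.70 in hrp48 cells, against 6.06 in LacZ cells. The hrp48 minus LacZ difference was -0.35 at the median (quartiles -0.56 and -0.13), and 3201 regions were below 0 and 547 above. Thus a set with a median RNH- difference of 2.28 in favour of hrp48 lay 1.27-fold lower in hrp48 after RNase H. Of its 3748 regions 1 was called, lower in hrp48, against 4 of all 7735 regions of the table (0.0517%). At an unadjusted p under 0.05 by the Wald test, 250 regions of the set were lower and 4 higher. Over all 7735 regions 291 were lower and 95 higher. Regions of unplaced scaffolds can share reads with their repeats, so they do not count as separate measurements.

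The lower level was not seen at other unplaced regions of like base mean. At the 2565 other U and Uextra regions of the hrp48 table the median hrp48 minus LacZ difference was 0.04. At the 462 of them with a base mean in the range of the set, it was 0.00, and on the 1099 arm regions it was 0.02. The base mean includes the RNH- libraries, and those 462 regions were not like the set in other respects. Their median RNH+ level was lower, at 5.27 in hrp36 and 5.37 in hrp48 cells, against 5.30 in LacZ cells. Their LacZ RNH- level was 6.30, against 4.59 in the set, and their median length 373.5 bases, against 574. For hrp36 minus LacZ the median in the set was -0.09. The difference between the set and the other regions was not tested, since regions are not replicates and the tables hold no values per library.

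**Figure D4:**
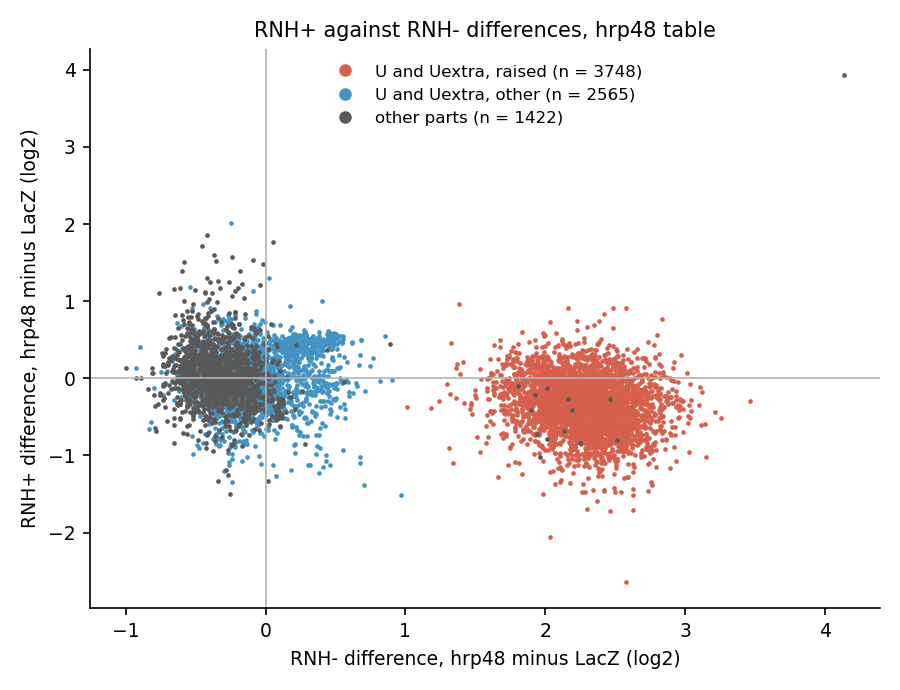
Each point is a region of the hrp48 table, with the hrp48 minus LacZ difference with RNH- on the x axis and with RNH+ on the y axis (both log2); red points are U and Uextra regions past 1 on the x axis (n = 3748), blue points the other U and Uextra regions (n = 2565) and grey points other parts of the genome. The red cloud lies near 2.28 on the x axis and at -0.35 on the y axis, and the single grey point at 4.14 and 3.94 is the region on 2L.

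The far end of Uextra had the highest hrp48 median of all windows in each table. Over windows of 1 Mb with at least 20 regions, hrp48 medians in the LacZ table ran from -0.20 to 0.43 (125 windows), and the highest were the last windows of Uextra. From 28 Mb on, 282 regions of the LacZ table had median RNH+ levels of 12.67 in hrp36 and 12.94 in hrp48 cells, against 12.50 in LacZ cells. The hrp48 minus LacZ difference was 0.43 at the median (quartiles 0.39 and 0.48), with 264 regions above 0 and 18 below. It was 0.39 in the hrp36 table (158 regions) and 0.43 in the hrp48 table (344 regions), over overlapping loci and the same libraries. For hrp36 the medians were 0.13, 0.16 and 0.17 in the hrp36, hrp48 and LacZ tables. With RNH- the hrp48 difference there was 0.20 in the LacZ table. Below 27 Mb on Uextra, the hrp48 median was 0.02 in the LacZ table (1673 regions). At the 261 of them with a base mean over 1000 the hrp48 median was 0.21, and that of hrp36 0.09. The hrp48 quartiles at those 261 were -0.19 and 0.44, so part of them lay as high as the far end. From 28 Mb on it was 0.44 at the 271 regions with a base mean over 1000 and -0.22 at the 11 others. Depth thus moves with the contrast between these stretches, and its part was not tested. By the Wald test 0 regions from 28 Mb on were called in the LacZ table, and at an unadjusted p under 0.05 there were 0 for hrp48 and 2 for hrp36. These regions were deep, with a median base mean of 5759, against 289 below 27 Mb, and the stretch was picked after its values were seen.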

How the data were processed

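DRIP-seq material was genomic DNA of S2 cells, extracted with phenol-chloroform and sonicated, per the labels' protocols. The submitters' processing notes name the build dm3 and the tools Bowtie2 2.2.2, MACS 1.4.2 and DESeq2. Their roles and the handling of reads that match several places are not stated there. The authors deposited group means on a log2 scale, with columns named Un and Tr, read here as RNH- and RNH+. They also deposited, per region, a base mean (a normalised signal), a shrunken log2 fold change of Tr over Un with its standard error, a Wald score and a p-value with its adjusted form. The mean of back-transformed group means never exceeded the base mean (0 regions), so the base mean was taken as that of the 12 S9.6 libraries.

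RNH+ differences were divided by the authors' standard error times the table's median ratio of unshrunken to shrunken change (1.05 in the hrp36, 1.07 in the hrp48 and 1.09 in the LacZ table). P-values are two-sided from the normal approximation, adjusted by Benjamini-Hochberg over all regions of a table. Reads per library are not in the tables, so counting intervals were not made. Alternatives were a filter on base mean, a pseudocount of 10, centring on the arm median, and another standard error.

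Regions carry no gene names. The naming rule took calls whose base mean reached the median of the table: per table and knockdown, the 3 largest differences each way and the 2 largest on the arms. It added the 3 highest LacZ RNH+ levels and every mitochondrial region. Any other region named was picked after its values were seen. The libraries, lists and rules were chosen with earlier results of these data known. Arms exclude the pericentromeric parts (past 22 Mb on 2L and X, past 23 Mb on 3L, before 1.3 Mb on 2R and before 0.4 Mb on 3R, by rounded borders). Input libraries were not used. Computations used SciPy 1.17.1, pandas 2.3.3 and NumPy 2.4.6 under Python 3.11.15, and plots Matplotlib 3.10.9.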

Additional observations from a re-analysis of the deposited data

Results flagged for a closer look

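At 3R 9484823 to 9485379 the RNH+ level relative to LacZ differed between the knockdowns, with hrp48 minus hrp36 at -5.30 (Wald test with the DESeq2 standard error, adjusted p 1.15e-24). At 2L 6923896 to 6924326 the same difference was 5.22 (adjusted p 3.70e-11). Both are differences of 2 against 2 libraries with a borrowed standard error. The group means fell short of the base mean there, to 0.62 and 0.74 of it. If the base mean covers the 12 S9.6 libraries and the group means are means of logs, the libraries of at least 1 group were far apart. Why these regions differ was not tested.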

How the results depend on the processing

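Of the 9 medians of RNH+ differences, some changed sign under 2 alternatives, among them the one farthest from 0. Centring on the arm median turned hrp36 minus LacZ to 0.032 in the hrp36 table and to -0.002 in the LacZ table, and hrp48 minus LacZ to 0.021 in the hrp36 table. Without U, Uextra and mitochondrial regions the hrp48 table gave 0.017 for hrp48 minus LacZ, in place of -0.157. For hrp48 minus hrp36 it gave 0.047, in place of -0.068. Counts of calls moved by over 1.5 times as follows. With a pseudocount of 10 in place of 1, which weighs down weak regions while the standard error was kept, the LacZ table had 0 regions higher and 1 lower in hrp36 and 0 higher in hrp48, and the hrp48 table had 0 higher in hrp36, 1 higher in hrp48 and 0 lower in hrp48. Among regions with a base mean of at least 50, 0 were higher in hrp48 in the LacZ table and 0 lower in hrp48 in the hrp48 table. Without U, Uextra and mitochondrial regions, an alternative chosen after seeing the data, the LacZ table had 1 lower in hrp36, 3 higher and 0 lower in hrp48, and the hrp48 table had 4 higher in hrp36 and 15 higher in hrp48, out of 1420 regions. Centring and the other standard error moved no count that far. The calls on 3R, 2L 6923896 and Uextra 11425868 held under 4 of 4 alternatives each, while all the weaker calls were lost with the pseudocount of 10. No paired analysis was possible because the tables hold group means without replicate numbers, and no library could be left out for the same reason. Depth per library and errors of the RNH+ means are unknown, which limits every call.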

Other observations

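On 2R, between 15603509 and 15653925, 19 consecutive regions of the LacZ table had a median RNH+ level of 8.51 in hrp36 and 7.93 in hrp48 cells, against 8.59 in LacZ cells. The hrp48 minus LacZ difference was -0.78 at the median, with 18 regions below 0 and 1 above, and that of hrp36 was 0.01. The hrp48 table lists 17 regions of the stretch, with a median of -0.77. The hrp36 table has 3 longer ones with a median of -0.26 and a range from -0.83 to -0.06. In the LacZ table, 0 regions of the stretch were called for hrp48 by the Wald test, and 1 differed at an unadjusted p under 0.05. With RNH- the hrp36 level there was 1.22 above that of LacZ at the median. The stretch was picked after its values were seen.

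All listed regions of YHet, the mapped heterochromatin of the Y chromosome, had RNH+ differences from LacZ below 0 in both knockdowns, a description with no test. The 7 regions of the LacZ table had a median difference of -0.25 for hrp36 and -0.31 for hrp48, while with RNH- hrp36 was 0.59 higher at the median. These regions were deep (median base mean 830), and deep arm regions of that table also lay below 0 at the median, at -0.20 for hrp36 and -0.14 for hrp48. YHet was not tested against them. The YHet differences lay from -0.41 to -0.04 for hrp36 and from -0.40 to -0.02 for hrp48. On XHet the 6 regions of the LacZ table were all below 0 for hrp48, with a median of -0.15, and 3 of them were above 0 for hrp36.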
